A study of Homo sapiens with 38 samples.

Results

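RNA from RKO cells, an established human colorectal cancer line, was compared after 4 days with NCD38-β2PIPP or with DMSO, with 1 library a side. NCD38 inhibits LSD1 (KDM1A), the enzyme that removes methyl groups from histone H3 lysine 4. In NCD38-β2PIPP it is joined through a pair of β-alanine units to a chain of pyrrole and imidazole rings (Py-Im-Py-Py), a polyamide that lies in the minor groove of DNA. The companion conjugate NCD38-β2P4 carries 4 pyrroles, so the conjugates differ by 1 imidazole in place of 1 pyrrole. Of the 38 samples in the series, 8 are RNA libraries, 1 for each of 4 treatments (DMSO, NCD38 and the conjugates) on each of days 4 and 30. The labels give each inhibitor at 2 µM, whereas the methods of the study state the day-4 dose in mM, and the label was used here. From a table of 25594 entries, 10865 genes were compared, those whose name occurred once and whose mean over the 8 libraries was at least 1 FPKM (a level in fragments, normalised for transcript length and for the mapped fragments of the library). The measure was the log2 ratio of FPKM + 1, NCD38-β2PIPP over DMSO, minus its median of 0.17 over these genes. With 1 library a condition there is no replicate check and no p-value.

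A Py-Im polyamide reads base pairs through its ring pairs. In the design of this study the PIPP chain recognises CG flanked on each side by 2 bases that are A or T, and the P4 chain recognises 6 bases that are A or T. LSD1 works in complexes with the corepressor CoREST (RCOR1), and its block is known to leave H3K4 methylation at enhancers and promoters of repressed genes. RNA levels in bulk cells do not separate less RNA per cell from fewer cells of a kind, and this holds for each value below.

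The libraries were checked first. FPKM summed to 773490 in the DMSO library and to 677739 in the NCD38-β2PIPP library of day 4, the lowest of the 8 libraries, and the depth estimated from the FPKM of single fragments was 17600000 and 14100000 fragments. The keratins of simple epithelia were present, with KRT18 at 90.0 FPKM in DMSO and 76.2 in NCD38-β2PIPP and KRT8 at 11.5 and 9.96. CDH1 and KRT19 were listed at 0 in both libraries and EPCAM was at 0.28 and 0.867 FPKM, so 2 of 5 epithelial markers were at 0. Fibroblast and endothelial markers summed to 0.01 and 0.0152 FPKM over 11 genes. Of 15 blood and immune markers only CD68, which is also a lysosomal protein, reached 1 FPKM (682 and 633), and the 15 summed to 684 and 634 FPKM.

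KDM1A, the target of the inhibitor, was at 56.6 FPKM in DMSO and 72.1 in NCD38-β2PIPP. RCOR1 was at 4.31 and 9.52 FPKM and REST, the repressor of neuronal genes that recruits CoREST, at 0.651 and 2.32. Both are low in GC content, and against genes of like GC content their log2 differences were 0.52 and 0.24, beside 0.25 for KDM1A. DLGAP5, a mitotic spindle protein, was at 0.627 and 1.76 FPKM, and SERPINB1, an inhibitor of neutrophil proteases, at 18.6 and 23.0. Against genes of like GC content, DLGAP5 differed by -0.07 with a counting half-width of 0.29, within counting error, and SERPINB1 by -0.36. The LSD1 and CoREST list had a median of 0.14 over 18 genes with none beyond 2-fold, and 9 REST targets had a median of 0.09.

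After centring, 650 genes (5.98%) were higher by 2-fold or more with NCD38-β2PIPP and 104 (0.957%) were lower by as much. The ratio followed the base composition of the transcript. In decile 2 of transcript GC content, with a median of 40.1% GC, the median log2 ratio was 0.62 and 200 of 1017 genes were 2-fold higher. In the highest decile, with a median of 64.7% GC, the median was -0.31 and 8 of 1017 were 2-fold higher. GC-poor transcripts were also longer and less abundant: the median length was 3970 nt in the lowest and 2166 nt in the highest decile, and the median DMSO level was 0.866 and 20.2 FPKM. Across genes, Spearman's rho of the ratio was -0.69 with GC content, 0.44 with length and -0.52 with mean FPKM over these 2 libraries. It is a description of 10170 genes in the same 2 libraries.

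Each gene was therefore set against the 200 genes nearest in GC content, and the difference from their median is called the GC-adjusted log2 ratio. On this measure 113 of 10170 genes (1.11%) were at least 2-fold higher and 99 (0.973%) at least 2-fold lower, and the quartiles of all genes were -0.21 and 0.22. Of the 113, 55 had transcripts under 500 nt, as had 60 of the 99. Among the 9807 genes of at least 500 nt, 58 were higher (0.591%) and 39 lower (0.398%). Each of these 97 differed by more than its counting half-width. They were chosen by the size of the same values and the half-width covers counting error only, so this is no separate check. With length matched in addition, all 97 stayed on their side of 0, and 36 of the 58 and 24 of the 39 stayed beyond 2-fold. The 58 had a median transcript length of 3910.5 nt and a median level of 3.20 FPKM in DMSO, whereas the 39 had 2035 nt and 45.1 FPKM.

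The highest gene of this group with fragments in both libraries was HSP90AA1, the stress-inducible cytosolic HSP90 chaperone. It stood at 22.5 FPKM in DMSO and 137 in NCD38-β2PIPP, a ratio of 6.06, with a GC-adjusted log2 ratio of 1.76 and a counting half-width of 0.08. On day 4 it was at 15.5 FPKM with NCD38 and 60.5 with NCD38-β2P4, and on day 30 between 414 (NCD38-β2PIPP) and 544 (NCD38-β2P4). The NCD38-β2PIPP library was thus the highest of day 4, and every day-30 library, DMSO included at 483, was higher still. The gene lies on the minus strand of chromosome 14 (chr14:102547079-102553381 in GRCh37) and its reference transcript has 11 exons. The intronless pseudogene HSP90AA6P was at 3.78 and 21.8 FPKM, and since it is a close copy its reads may belong to HSP90AA1.

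CSE1L, the exporter that returns importin alpha to the cytoplasm, was at 3.31 FPKM in DMSO and 18.8 in NCD38-β2PIPP (GC-adjusted 1.44, half-width 0.17). EIF3A, the largest subunit of initiation factor 3, was at 8.64 and 37.6 FPKM (1.32), and EEF1E1, a scaffold of the multi-synthetase complex, at 2.44 and 12.6 FPKM (1.27). EIF4G3, an initiation scaffold, and EIF2S2, the beta subunit of initiation factor 2, were the other members beyond 2-fold among 62 initiation and elongation factors, at 1.11 and 1.01. The median of that list was -0.08, and 1.11% of all genes were 2-fold higher. In each of the 4 the level was lowest with NCD38 alone among the day-4 libraries, higher in DMSO, higher again with NCD38-β2P4 and highest with NCD38-β2PIPP. The median FPKM of all compared genes ran in the same order, at 5.56, 7.64, 8.56 and 9.95, so this order is not particular to them. After GC adjustment, NCD38 over DMSO was 0.02 for EIF3A, -0.56 for EEF1E1, 0.05 for EIF4G3 and -0.18 for EIF2S2.

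SF3B1, a core subunit of the U2 spliceosomal particle, was at 6.38 FPKM in DMSO and 28.7 in NCD38-β2PIPP (GC-adjusted 1.22), and IWS1, a partner of elongation factor SPT6, at 4.07 and 12.9 FPKM (1.22). HNRNPH2 and HNRNPR, which bind nascent transcripts, were at 1.09 and 1.01, 2 of 34 SR proteins and hnRNPs, beside 1.11% of all genes. The spliceosome list had a median of 0.06 with 1 of 62 genes 2-fold higher, which is near that share. Nucleolin (NCL), the abundant nucleolar RNA-binding protein, was at 97.6 and 258 FPKM (1.05) and with GNL2 (1.04) and NOL11 (1.03) made 3 of 59 ribosome biogenesis genes beyond 2-fold higher, beside 1.11% of all genes. Other members of the 12 highest were AKAP12, a scaffold of protein kinase A, from 2.16 to 9.49 FPKM (1.37), LRRFIP1 from 1.65 to 6.50 (1.23), SGK196 from 2.07 to 7.30 (1.32) and the proteasome ATPase PSMC6 from 1.56 to 8.74 (1.22). SNORA59B, on a reference transcript of 701 nt, was listed at 0 in DMSO and at 6.47 FPKM in NCD38-β2PIPP, and no fold is given. MKI67, the proliferation antigen, was at 7.27 and 20.7 FPKM (1.16). It was the 1 gene of 48 in the G2/M list beyond 2-fold, beside 1.11% of all genes higher.

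Genes of mitochondria and ribosomes were among the 12 lowest. PFDN4, a subunit of the prefoldin chaperone, was at 9.60 FPKM in DMSO and 3.91 in NCD38-β2PIPP, 2.46 times lower, with a GC-adjusted log2 ratio of -1.72 and a half-width of 0.33. TIMM8B, which guides proteins across the mitochondrial intermembrane space, was at 56.1 and 28.6 FPKM (-1.53). RPL9, a protein of the large ribosomal subunit, was at 2208 and 1382 FPKM (-1.44). For PFDN4 the NCD38-β2PIPP library was the lowest of the 8, with 4.32 FPKM for NCD38-β2P4, 6.30 for NCD38 and 33.8 to 54.6 on day 30. For RPL9 the lowest was NCD38-β2P4 on day 4, at 1256 FPKM.

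Subunits of ATP synthase and cytochrome oxidase came next. ATP5L was at 164 FPKM in DMSO and 111 in NCD38-β2PIPP (-1.36), ATP5G3 at 121 and 88.0 (-1.31) and COX7A2L, a factor of respiratory supercomplexes, at 120.2 and 86.1 (-1.29). RPL15 was at 1146 and 838 FPKM (-1.24), RPL37A at 9262 and 6337 (-1.18) and RPSAP58, a near copy of the ribosomal protein gene RPSA whose reads cannot be told from it with certainty, at 1133 and 770.05 (-1.21). HINT1, a nucleotide hydrolase, CNIH4, a cargo receptor of the secretory pathway, and C9orf123 completed the 12, at -1.19 each. In FPKM these genes were 1.29 to 2.46 times lower, and their centred log2 ratios lay between -1.29 and -0.54. The rest of each GC-adjusted value was the level of the genes of like GC content, whose median ratio was above 0. CHAC1, an amino acid stress gene with 61.2% GC, was at 12.5 and 4.79 FPKM (-1.13) and was lowest of all in the NCD38 library, at 3.35 FPKM.

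Promoters were read from RefSeq (GRCh38.p14), 250 bases before to 50 after the start, for genes with a single listed start. The sequences of CSE1L and IWS1 (higher) and of RPL9 and PFDN4 (lower) are shown to mark where the letters read by the PIPP chain occur. Capitals mark CG flanked on both sides by 2 bases that are A or T, a pattern that reads alike on both strands.
CSE1L (plus strand, chr20:49046062-49046361): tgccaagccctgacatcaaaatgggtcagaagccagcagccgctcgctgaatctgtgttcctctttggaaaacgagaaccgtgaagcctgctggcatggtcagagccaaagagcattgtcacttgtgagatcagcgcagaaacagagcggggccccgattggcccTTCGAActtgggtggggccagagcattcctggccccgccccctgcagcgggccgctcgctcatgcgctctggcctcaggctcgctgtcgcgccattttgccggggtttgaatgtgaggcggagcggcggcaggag
IWS1 (minus strand, chr2:127526440-127526739): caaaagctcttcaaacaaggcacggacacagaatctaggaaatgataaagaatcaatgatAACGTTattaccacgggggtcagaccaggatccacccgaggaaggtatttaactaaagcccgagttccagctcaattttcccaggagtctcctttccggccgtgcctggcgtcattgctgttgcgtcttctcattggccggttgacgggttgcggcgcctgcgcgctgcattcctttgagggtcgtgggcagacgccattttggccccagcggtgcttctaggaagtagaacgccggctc
RPL9 (minus strand, chr4:39458873-39459172): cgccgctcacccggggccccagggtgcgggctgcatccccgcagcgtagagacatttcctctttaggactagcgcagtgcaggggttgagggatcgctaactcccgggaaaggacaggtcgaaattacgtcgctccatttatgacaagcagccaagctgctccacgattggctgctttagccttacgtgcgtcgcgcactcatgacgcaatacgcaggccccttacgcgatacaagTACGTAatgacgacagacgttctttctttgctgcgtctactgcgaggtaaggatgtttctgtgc
PFDN4 (plus strand, chr20:54207837-54208136): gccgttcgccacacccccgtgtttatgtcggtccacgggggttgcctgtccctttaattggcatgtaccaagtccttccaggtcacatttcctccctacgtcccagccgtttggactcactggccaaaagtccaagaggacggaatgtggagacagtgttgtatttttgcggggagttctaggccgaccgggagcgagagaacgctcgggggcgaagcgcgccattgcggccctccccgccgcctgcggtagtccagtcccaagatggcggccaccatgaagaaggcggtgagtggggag
The match began at base -85 from the start in CSE1L, at -190 in IWS1 and at -14 in RPL9, and PFDN4 held none. The promoters read for EEF1E1, PSMC6, ATP5L, RPSAP58, C9orf123, CNIH4, HINT1 and RPL37A held none either. The sequences shown thus hold every match found among the promoters read for the highest and lowest genes. Among genes of at least 500 nt, 9 of 33 promoters of genes 2-fold higher held a match (27.3%) and 6 of 26 of genes 2-fold lower (23.1%), beside 18.6% of the 5728 compared genes with such a promoter and 16.3% of all 22114 in the table. From the lowest to the highest of 5 equal groups by the GC-adjusted ratio, the share was 20.8%, 19.0%, 16.6%, 18.2% and 18.2%. Among the low lists described below it was 37.5% of 56 promoters of cytosolic ribosomal proteins, 28.6% of 56 of mitochondrial ribosomal proteins and 7.69% of 26 of complexes III to V. It was 15.6% of 32 for complex I and 15.6% of 32 for the proteasome. Among the high lists it was 28.6% of 14 for the H3K4 list, 26.3% of 19 for kinesins and 22.2% of 9 for TGF-beta and SMAD genes. It was 18.2% of 22 for acetylases and deacetylases, 16.7% of 18 for remodellers and 0 of 7 for YAP targets. A run of 6 bases that are A or T stood in 54.5% of the higher and 65.4% of the lower promoters, beside 44.3% of the compared genes. These letters occur by base composition, and a match is not a bound site.

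Of 63 gene lists, 58 had at least 8 GC-adjusted genes and were ordered by their median, beside 0.00 over all genes. At the low end stood the protein machines of ribosomes and mitochondria. Cytosolic ribosomal proteins, which build both ribosomal subunits, had the lowest median, -0.50 over 84 genes, and 76 of 84 were below 0. Of these, 7 were at least 2-fold lower and none higher, beside 0.973% of all genes lower. The 7 were RPL9, RPL15, RPL35A, RPL37, RPL37A, RPS13 and RPS29. The reference transcripts of RPL37A (2992 nt) and RPL37 (7573 nt) are far longer than a usual ribosomal protein mRNA, so their GC content may not be that of the counted RNA. RPS18, the most abundant, was at 10656 FPKM in DMSO and 6723 in NCD38-β2PIPP (GC-adjusted -0.69), whereas RPL7 was at 504 and 1474 (0.77) and RPS24 at 373 and 829 (0.56). In plain FPKM, 63 of the 84 were lower with NCD38-β2PIPP. Ribosomal protein genes made up 36.1% of all FPKM in DMSO and 31.3% in NCD38-β2PIPP on day 4. The share was 33.3% with NCD38 and 30.1% with NCD38-β2P4, so it was below DMSO with each compound. Many ribosomal protein genes have near-identical pseudogene copies, so single members are uncertain.

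Respiratory chain subunits lay in the same range. Complexes III to V, from cytochrome c reductase to ATP synthase, had a median of -0.35 over 43 genes, 41 of them below 0, and 5 were at least 2-fold lower, beside 0.973% of all genes: ATP5L, ATP5G3, COX7A2L, ATP5L2 and COX7C. COX7C was at 804 FPKM in DMSO and 699 in NCD38-β2PIPP (-1.02), and the largest value belonged to the readthrough gene ATP5J2-PTCD1 (0.29). ATP5L2, with 1 exon in its reference transcript, was at 20.4 FPKM in DMSO and 13.6 in NCD38-β2PIPP (-1.11). In the day-30 libraries ATP5L2 was at 0.0424 to 0.101 FPKM. Whether its reads belong to ATP5L was not tested, so the 5 lower genes may not be 5 separate signals. Complex I, the NADH dehydrogenase, had a median of -0.29 over 44 genes. NDUFB6 (46.4 and 36.3 FPKM, -1.14) and NDUFA4 (52.8 and 45.7, -1.04) were beyond 2-fold lower, beside 0.973% of all genes. NDUFA13, its most abundant member, was at 963 and 606 FPKM (-0.56), and NDUFS4, an accessory subunit, was at 10.8 and 27.7 FPKM (0.61). After GC adjustment none of these subunits was 2-fold higher.

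The proteasome, which degrades ubiquitin-tagged proteins, had a median of -0.27 over 46 genes. Of these, 1 member, PSMC6, was 2-fold higher and none 2-fold lower, beside 1.11% and 0.973% of all genes. PSMB7, a catalytic core subunit, was at 873 and 573 FPKM (-0.73) and PSMA2, a core subunit as well, at 15.5 and 48.1 (0.74). Mitochondrial ribosomal proteins had a median of -0.22 over 76 genes. MRPL22 (13.8 and 10.6 FPKM, -1.13) and MRPL33 (78.3 and 65.7, -1.03) were beyond 2-fold lower, beside 0.973% of all genes. MRPL41, the most abundant, was at 708 and 521 FPKM (-0.34), and MRPL50 at 8.50 and 21.3 (0.62). Families were also formed from the leading letters of symbols, 122 with at least 10 genes. RPL had a median of -0.46 over 60 genes, NDUFB -0.45 over 11, NDUFA -0.44 over 14, RPS -0.43 over 42, PSMB -0.39 over 10, TIMM -0.38 over 12 and COX -0.33 over 19, the lowest medians beside RNU at -0.47 over 15 small RNAs. The highest were RN, mostly near-identical 5S rRNA copies, at 0.63 over 19, HSPA, the HSP70 chaperones, at 0.33 over 10, PIK at 0.31 over 10 and KIF.

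These genes have short transcripts, and the GC-adjusted ratio still followed length. Spearman's rho with length was 0.34 over the 10170 genes. The median transcript of cytosolic ribosomal proteins had 827 nt, of complex I 716.5 nt and of mitochondrial ribosomal proteins 1242 nt, against 2998 nt for all genes. Set against genes of like GC content and like length, the medians were -0.29 for cytosolic ribosomal proteins, -0.21 for complexes III to V, -0.15 for complex I, -0.11 for the proteasome and -0.03 for mitochondrial ribosomal proteins. The medians were also taken against genes of like GC content and like mean FPKM over the 8 libraries. They were then -0.29, -0.23, -0.14, -0.06 and -0.08 in the same order. Length and abundance were not matched together, and their part in these differences was not tested beyond that. With length matched, 14 of 84 cytosolic ribosomal proteins were above 0, and 34 of 76 mitochondrial ribosomal proteins were above 0.

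At the high end stood regulators with long transcripts. YAP targets, genes switched on by the Hippo pathway coactivator YAP with its TEAD partners, had the highest median, 0.37 over 15 genes, with 14 above 0 and none 2-fold higher. TEAD1 itself was at 0.840 FPKM in DMSO and 4.11 in NCD38-β2PIPP (GC-adjusted 0.82), and ASAP1, a GTPase-activating protein, at 5.81 and 15.2 FPKM (0.77). AXL, a receptor tyrosine kinase and the most abundant member, was at 199.6 and 202 FPKM (0.03), and GADD45B, a stress sensor, at 19.4 and 14.5 FPKM (-0.35). With length matched, the median was 0.25 and 13 of 15 were above 0.

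Kinesins, the motors that walk along microtubules, had a median of 0.30 over 22 genes. KIF3B was at 5.21 and 11.5 FPKM (0.78) and KIF7, of Hedgehog signalling, at 7.02 and 11.5 FPKM (0.76), whereas KIF22 was at 73.5 and 64.3 FPKM (-0.06) and KIF21A at 0.176 and 0.498 (-0.45). Of the 22, 6 were below 0. TGF-beta and SMAD genes had a median of 0.20 over 22 genes, with SMAD7, the feedback inhibitor, at 0.964 and 1.76 FPKM (0.58) and LTBP2, a matrix protein, at 24.6 and 34.4 (0.57). The corepressor TGIF1 was at 24.2 and 29.1 FPKM (-0.39).

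Lists of chromatin regulators lay side by side. Chromatin remodellers had a median of 0.25 over 37 genes, of which 32 were above 0. BAZ1B, a subunit of ISWI complexes, was at 9.14 FPKM in DMSO and 24.3 in NCD38-β2PIPP (GC-adjusted 1.11). It was the 1 member beyond 2-fold, beside 1.11% of all genes higher. ARID1B, of the BAF complex, was at 2.94 and 6.67 FPKM (0.96), CHD1 at 0.373 and 1.03 (-0.30) and the BAF core subunit SMARCB1 at 105 and 90.6 (-0.08). H3K4 methylases and demethylases, a list of enzymes and partner proteins tied to H3K4 methylation, had a median of 0.25 over 22 genes with none beyond 2-fold. SETD7 was at 2.86 and 10.4 FPKM (0.86) and MLL5 at 1.22 and 4.99 (0.65), whereas the demethylase KDM5B was at 7.82 and 10.1 (-0.22) and the scaffold WDR5 at 59.8 and 57.6 (0.00).

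Histone acetylases, deacetylases and BET proteins had a median of 0.24 over 44 genes, 33 of them above 0 and none beyond 2-fold. SAP30, of the SIN3 corepressor, was at 8.52 and 17.6 FPKM (0.88), the acetylase KAT6A at 3.16 and 9.22 (0.83), HDAC1 at 104 and 106 (-0.15) and SAP18 at 48.2 and 48.8 (-0.48). The median transcripts of these 6 high lists had 4682 to 6365 nt. With length matched, the medians were 0.16 for kinesins, 0.14 for the H3K4 list and 0.14 for acetylases and deacetylases. They were 0.10 for TGF-beta and SMAD genes and 0.09 for remodellers.

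Small nucleolar and Cajal body RNAs, which guide rRNA modification, were the list with the most genes beyond 2-fold, 31 higher and 28 lower of 147, beside 1.11% and 0.973% of all genes, but these values rest on few fragments. Spliceosomal and other small RNAs had a larger share, 25 higher and 26 lower of 105. By leading letters, MIR (microRNA entries) had 24 higher and 21 lower of 80, and RNU had 0 higher and 3 lower of 15. Of 79 microRNA entries 46 were beyond 2-fold, and in 35 of these calls 1 library was at 0. The median of the small nucleolar and Cajal body RNAs was -0.25, and 0.01 with length matched. Of the 147, 52 were listed at 0 in both libraries, and the centring alone gives such a gene a centred ratio of -0.17. In plain FPKM 56 members were higher and 40 lower with NCD38-β2PIPP. In 50 of the 59 calls the gene was listed at 0 (under 0.001 FPKM) in 1 of the libraries, as with SNORD28 (0 and 489 FPKM), SNORD18C (0 and 346) and SNORD75 (719 and 0), and no fold is given for them. Of the 45 above 0 in both libraries, 11 had the same FPKM ratio of 1.24, and 27 had a ratio within 1% of 1.24 or of that number times a ratio of whole numbers up to 3. The estimated depths of the libraries, 17600000 and 14100000 fragments, stand in nearly that ratio. Of the 45, 4 were 2-fold higher (SNORD4A, SNORA70G, SNORD17 and SNORA71B) and 5 were 2-fold lower (SNORA64, SNORD33, SNORD22, SNORD68 and SNORA17). SNORD36A, the most abundant, was at 2889 and 3789 FPKM (-0.44) and was listed at 0 in all 4 day-30 libraries.

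The other lists lay between. S-phase genes had a median of -0.03 over 50, the interferon response 0.01 over 31, p53 targets 0.01 over 24, HOX genes 0.06 over 26, zinc finger genes of the ZNF family 0.07 over 267, the G2/M list 0.14 over 48 and heat shock and chaperonin genes 0.13 over 35. HSP90AA1 was the 1 heat shock gene beyond 2-fold, beside 1.11% of all genes higher. The ATF4 amino acid response, which holds CHAC1, had a median of -0.19 over 35.

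The same genes were then read in the other libraries. NCD38 and NCD38-β2P4 on day 4 were set against the same DMSO library, so their ratios share its errors with those above and are given side by side only. The lists and genes were picked by their NCD38-β2PIPP values, so larger sizes there are no separate result. Cytosolic ribosomal proteins had a GC-adjusted median of -0.50 with NCD38-β2PIPP, -0.34 with NCD38-β2P4 and 0.05 with NCD38. YAP targets had 0.37, 0.12 and -0.23, and chromatin remodellers 0.25, 0.10 and -0.10. HSP90AA1 had 1.76, 1.01 and -0.01, and PFDN4 -1.72, -1.20 and -0.36. Set directly against each other on day 4 at the same labelled dose, NCD38-β2PIPP over NCD38-β2P4, the conjugates differed 2-fold in 61 genes higher (0.6%) and 63 lower (0.619%). The medians of the 12 lists described above ran from -0.18 (complexes III to V) to 0.21 (YAP targets), HSP90AA1 stood at 0.79 and MKI67 at 0.71. No interval between cultures can be given for these differences with 1 library each.

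On day 30 NCD38-β2PIPP and DMSO were a separate pair of libraries. There 69 genes (0.678%) were 2-fold higher and 29 (0.285%) lower after GC adjustment. Of the 58 genes of at least 500 nt that were 2-fold higher on day 4, 1 was 2-fold higher and 1 was 2-fold lower on day 30, and 22 were above 0, beside 49.4% of all such genes. Of the 39 lower on day 4, none was beyond 2-fold and 33 were above 0. The medians of the 12 lists lay between -0.17 (chromatin remodellers) and 0.27 (snoRNAs), and were 0.03 for cytosolic ribosomal proteins and 0.08 for YAP targets.

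**Figure D1:**
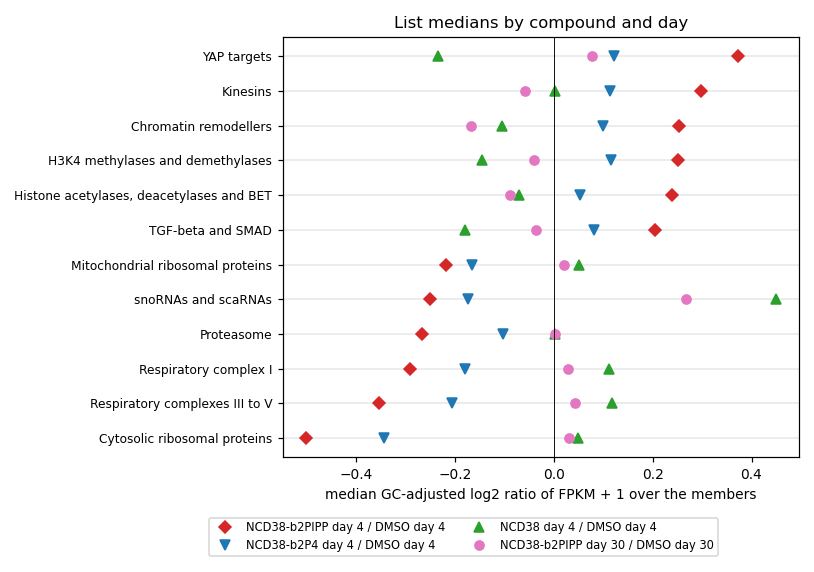
Each row is 1 of the 12 lists and the horizontal axis the median GC-adjusted log2 ratio of FPKM + 1 over its members, for 4 pairs of libraries. Red diamonds (NCD38-β2PIPP, day 4) lie furthest from 0 in 11 of the lists, with snoRNAs as the exception, and the day-4 pairs share 1 DMSO library. The 12 lists were chosen as the highest and lowest by the red values, so this order is no separate result.

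The DMSO libraries of day 4 and day 30 differed in more genes than either NCD38-β2PIPP pair. After GC adjustment 956 genes (9.4%) were 2-fold higher and 1254 (12.3%) lower on day 4. HSP90AA1 was at 22.5 FPKM in DMSO on day 4 and 483 on day 30, and CSE1L at 3.31 and 42.6. Set against the DMSO library of day 30, the value of 30 of the 53 named genes beyond 2-fold changed sign, HSP90AA1 among them at -1.52. The medians of the 6 high lists stayed above 0 and those of the 6 low lists below. These signs also hold the difference between the DMSO libraries, day 4 over day 30. Its median was -0.63 for cytosolic ribosomal proteins and 0.30 for TGF-beta and SMAD genes. It went against the list's sign for YAP targets (-0.22), remodellers (-0.20), acetylases and deacetylases (-0.19) and complexes III to V (0.23). The labels name no sequencing run, and day and run cannot be told apart.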

How the data were processed

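RNA was prepared with a stranded mRNA kit and the authors deposited FPKM values from Cufflinks. The paper names TopHat as the aligner, the submitters' processing notes list HISAT2 2.2.1.0 and hg19, and the annotation is not given in the sources used here. FPKM is divided by length and by mapped fragments, so no count test was run. Depth was estimated from the FPKM at which single fragments pile up, and a 95% counting half-width on the log2 scale was derived from it for transcripts of at least 500 nt, where it covers counting error only.

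Entries whose name occurs more than once (90 of 25594) and genes under a mean of 1 FPKM were left out. Transcript length, GC content and position come from GENCODE release 44 on GRCh37, by symbol for 9152 genes or unique RefSeq synonym for 1018. The GC-adjusted ratio is the centred log2 ratio minus the median of the 200 genes nearest in GC rank. Matching on length used 10 bins of GC content by 5 of length. Beyond 2-fold means a log2 value of at least 1 in size. In a simulation over 9807 genes, with counting error and a linear GC trend alone, 85.0% of 200 genes changed 3-fold were recovered. None of 9607 unchanged genes passed. The simulation held no spread between cultures and no added trend with length or abundance. It therefore gives no rate of false calls for the real libraries. Python 3.11.15, pandas 2.3.3 and scipy 1.17.1 were used.

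The comparison, gene lists and rules were chosen with earlier results of these data known. Named were the 12 highest and 12 lowest GC-adjusted genes with at least 500 nt and 5 FPKM in either library, up to 4 members of each of the 6 highest and 6 lowest lists (the 2 largest, the smallest and the most abundant), KDM1A, RCOR1, REST, DLGAP5 and SERPINB1, and members beyond 2-fold of lists with at most 5 such members. The ribosomal proteins and snoRNAs named beyond this rule, and the values of CD68, were chosen after their values were seen. Alternatives changed the pseudocount, filter, scaling, DMSO library, short transcripts and the GC adjustment. One gene named by this rule is not reported here. ChIP-seq samples were not analysed here.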

Additional observations from a re-analysis of the deposited data

Results flagged for a closer look

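Values that went opposite ways on day 4 and day 30, each with NCD38-β2PIPP over the DMSO library of its day, were singled out. A list counted where both medians were at least 0.1 in size, and a named gene beyond 2-fold on day 4 where both values exceeded counting error and the day-30 value exceeded 0.5 in size. With 1 library a condition the difference between the days was not tested.

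Chromatin remodellers had a median GC-adjusted log2 ratio of 0.25 on day 4 and -0.17 on day 30. With length matched as well, the day-4 median was 0.088, under the limit of 0.1. The list of snoRNAs and scaRNAs had -0.25 on day 4 and 0.27 on day 30, with most of its genes at 0 in 1 or more libraries. On day 4, 52 of 147 were at 0 in both libraries, and these take a centred ratio of -0.17 from the centring alone. EIF3A was at 1.32 on day 4, from 8.64 to 37.6 FPKM, and at -0.75 on day 30, from 61.4 to 35.7 FPKM. HNRNPH2 was at 1.09 on day 4, from 1.46 to 7.44 FPKM, and at -1.08 on day 30, from 12.1 to 5.08 FPKM. ZNF695, a zinc finger gene, was at -1.34 on day 4, from 2.97 to 1.69 FPKM, and at 0.60 on day 30, from 0.958 to 1.94 FPKM.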

How the results depend on the processing

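No paired analysis was possible because no condition holds more than 1 library. A fit that would treat the days as replicates was not run. The reported numbers were 650 genes higher and 104 lower after centring, and 113 higher and 99 lower against genes of like GC content, and the 12 list medians are given in the report. A count was taken as kept within 1.5 times and a list median within 0.1 on the log2 scale. With a pseudocount of 0.1, the numbers of genes beyond 2-fold were 1744 (centred higher), 268 (GC-adjusted higher) and 264 (GC-adjusted lower), and the median was 0.50 for YAP targets, 0.47 for kinesins, -0.47 for respiratory complexes III to V and -0.42 for respiratory complex I. With a pseudocount of 0.01, the numbers of genes beyond 2-fold were 1920 (centred higher), 356 (GC-adjusted higher) and 296 (GC-adjusted lower), and the median was 0.50 for YAP targets, 0.64 for kinesins, -0.48 for respiratory complexes III to V and -0.43 for respiratory complex I. With a mean FPKM of at least 5, the numbers of genes beyond 2-fold were 63 (centred lower), and the median was 0.061 for TGF-beta and SMAD and -0.085 for snoRNAs and scaRNAs. With no filter on mean FPKM, the median was 0.23 for YAP targets, 0.084 for kinesins, 0.046 for TGF-beta and SMAD and -0.036 for snoRNAs and scaRNAs. With transcripts of at least 500 nt alone, the numbers of genes beyond 2-fold were 7 (centred lower), 53 (GC-adjusted higher) and 41 (GC-adjusted lower), and the median was 0.20 for snoRNAs and scaRNAs. With no centring, the numbers of genes beyond 2-fold were 1122 (centred higher). With bins of GC content and length, the median was 0.25 for YAP targets, 0.16 for kinesins, 0.088 for chromatin remodellers, 0.14 for H3K4 methylases and demethylases, 0.098 for TGF-beta and SMAD, -0.29 for cytosolic ribosomal proteins, -0.21 for respiratory complexes III to V, -0.15 for respiratory complex I, -0.11 for proteasome, 0.013 for snoRNAs and scaRNAs and -0.026 for mitochondrial ribosomal proteins. With bins of GC content and mean FPKM, the median was 0.18 for kinesins, -0.29 for cytosolic ribosomal proteins, -0.23 for respiratory complexes III to V, -0.14 for respiratory complex I, -0.057 for proteasome and -0.084 for mitochondrial ribosomal proteins. With GC content as the median over the basic transcripts of a gene, which was chosen after seeing the data, the median was 0.48 for YAP targets and 0.072 for TGF-beta and SMAD. Against the DMSO library of day 30, the numbers of genes beyond 2-fold were 1224 (centred higher), 1820 (centred lower), 752 (GC-adjusted higher) and 1200 (GC-adjusted lower), and the median was 0.26 for YAP targets, 0.56 for kinesins, 0.13 for chromatin remodellers, 0.44 for H3K4 methylases and demethylases, 0.092 for histone acetylases, deacetylases and BET, 0.45 for TGF-beta and SMAD, -1.23 for cytosolic ribosomal proteins, -0.63 for respiratory complex I, -0.42 for snoRNAs and scaRNAs and -0.49 for mitochondrial ribosomal proteins. Against that library the GC-adjusted value changed sign for 30 of the 53 named genes beyond 2-fold, and was -1.52 for HSP90AA1, -0.55 for CSE1L, -0.89 for AKAP12, -0.69 for EIF3A, -0.38 for EEF1E1, -1.09 for LRRFIP1, -1.26 for IWS1, -0.59 for SF3B1, -0.79 for PSMC6, 1.81 for ATP5G3, 0.086 for COX7A2L, 0.28 for RPSAP58, 0.74 for C9orf123, 0.35 for HINT1, 0.32 for NDUFB6, 0.25 for SNORD75, -0.053 for UHRF1, 1.40 for SEC61G, 0.67 for SPCS1, 0.75 for NDUFA4, 3.55 for ATP5L2, 0.22 for MRPL33, -1.87 for EIF2S2, -0.45 for EIF4G3, -2.61 for GNL2, -0.78 for NCL, -0.30 for NOL11, 1.03 for ZNF695, 0.050 for LINC00159 and -0.48 for HNRNPH2. Under each of the other 10 alternatives run on the GC-adjusted values, every named gene beyond 2-fold that was still compared kept its sign. Upper-quartile scaling without centring and 20 bins of GC content left every count and list median computed under them within these limits. The causes of these changes were not tested. Depth is an estimate, FPKM holds no counts, and low genes are shrunk by the added 1, so the counting half-widths are approximate and cover counting error only. The spread between cultures is unknown.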
